A study of Mus musculus with 5 samples.

Results

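The FGF-ERK signalling and feedback genes described here are Fgf9, Fgfr1, Fgfr2, Spry1, Spry2, Spry4, Spred1, Dusp6, Etv4 and Etv5, taken by gene name from a table of 53927 mouse genes. All 10 were present, and all 10 passed the filter on low values, which kept 14884 genes. RNA came from cultured primary nephron progenitors of C57BL/6J mouse embryos, the cells that renew themselves and give rise to nephrons. The KO cells came from Dis3l2-/- embryos (3 libraries) and the WT cells from Dis3l2+/+ embryos (2 libraries). Both had been passaged 1 time in culture. The Dis3l2 protein is an RNase that digests RNAs carrying a uridine tail, and people without it have Perlman syndrome, in which overgrowth and kidney tumours occur. Neither the deleted part of Dis3l2 nor whether each library came from its own embryo is stated in the labels. The tests rest on how far these libraries spread, and some of that may be technical. Levels of Xist, the transcript of the inactive X, and of Y-linked Ddx3y were opposite in WT replicates 1 and 2, and in KO replicate 3 and the other KO libraries, so those libraries differ in sex and do not share an embryo. The labels cite a published culture method without listing the medium, so it is not known here whether FGF protein was added.

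FGF ligands bind FGF receptor tyrosine kinases together with heparan sulfate and switch on the RAS-RAF-MEK-ERK cascade. ERK activity then raises transcription of its own brakes, the Sprouty and Spred proteins and the phosphatase Dusp6, and of the ETS factors Etv4 and Etv5, so these transcripts are widely read as a gauge of the pathway. In the mouse kidney, Fgf9 and Fgf20 keep nephron progenitors alive and uncommitted, and progenitors need Fgfr1 and Fgfr2 to receive that signal. The comparison of KO with WT libraries asks whether this progenitor-sustaining signal differs by genotype.

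None of the 10 genes passed the test of KO against WT, and neither did the targeted gene Dis3l2. The 7 feedback and target transcripts were abundant in both genotypes, and their log2 fold changes ran from -0.20 (Spred1) to 0.11 (Etv4). Fgfr2 was the 1 gene of the 10 whose KO and WT libraries did not overlap, against 14.8% of all genes tested. Its KO libraries all lay above the WT range, 1.26-fold higher, with a log2 fold change of 0.33. For the other members, KO and WT values overlapped. In 7 of the 10, KO replicate 1 and WT replicate 1 were the highest libraries, against 16.8% of all genes tested.

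Upstream sequence is shown for 3 of the feedback genes, because Dusp6 and Spry2 were high in the same libraries and Spred1 was not. Each window is the 250 bases before the RefSeq start on GRCm38.p6, read 5′ to 3′ along the gene's strand, and capitals mark the ETS-type motifs AGGAAG and CGGAAG or their reverse complements. The windows are chr10:99262981-99263230 on the plus strand for Dusp6, chr14:105896820-105897069 on the minus strand for Spry2, and chr2:117120821-117121070 on the plus strand for Spred1.
Dusp6: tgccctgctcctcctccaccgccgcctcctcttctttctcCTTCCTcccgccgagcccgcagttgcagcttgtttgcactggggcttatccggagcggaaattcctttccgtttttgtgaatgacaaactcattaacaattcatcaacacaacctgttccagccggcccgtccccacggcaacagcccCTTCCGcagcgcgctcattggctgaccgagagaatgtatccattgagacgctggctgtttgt
Spry2: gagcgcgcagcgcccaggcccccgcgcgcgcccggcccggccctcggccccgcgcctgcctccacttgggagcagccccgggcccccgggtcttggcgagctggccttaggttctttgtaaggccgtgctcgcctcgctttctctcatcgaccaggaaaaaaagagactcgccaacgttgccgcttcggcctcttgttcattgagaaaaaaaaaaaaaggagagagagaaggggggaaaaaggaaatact
Spred1: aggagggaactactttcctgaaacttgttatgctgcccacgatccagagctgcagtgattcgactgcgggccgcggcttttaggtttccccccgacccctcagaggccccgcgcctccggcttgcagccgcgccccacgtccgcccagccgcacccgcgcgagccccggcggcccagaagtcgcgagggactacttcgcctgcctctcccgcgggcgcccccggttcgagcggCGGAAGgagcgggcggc
Dusp6 held CTTCCT starting 210 bases and CTTCCG starting 62 bases before the start, Spred1 held CGGAAG starting 17 bases before it, and Spry2 held neither motif. Windows were found for 7 of the 10 genes, 8 windows in all because Etv5 has a pair of starts. Either motif, on either strand, was in 3 of these 8 windows, the third being that of Fgfr2, against 39.2% of the 32851 windows of all genes. A match is a run of letters and not a shown binding site.

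The libraries held between 19.61 M and 49.25 M assigned reads (KO replicates 1, 2 and 3 with 49.25, 32.23 and 19.61 M, WT replicates 1 and 2 with 22.34 and 28.26 M), a depth taken from the spacing of low CPM values. Levels are the deposited CPM values, scaled to an effective library size. Dis3l2, the targeted gene, stood at 6.5, 4.93 and 4.70 CPM in KO, against 16.0 and 12.2 CPM in WT, so the KO values were all under the WT values. Among progenitor markers Six2 was at 31.9, 26.5 and 18.6 CPM in KO and at 19.0 and 18.8 CPM in WT, and Eya1, Wt1 and Itga8 were abundant in every library, while Pax2 was at most 0.66 CPM. Defining markers of leukocytes (Ptprc, at most 0.11 CPM), endothelium (Pecam1, at most 0.70) and ureteric bud (Ret, at most 0.42) were near 0. Other markers on those lists were not: the endothelial markers Emcn and Kdr lay at 23.5 to 64.6 and 5.27 to 35.6 CPM, and the ureteric bud markers Wnt11 and Hoxb7 at 4.54 to 11.3 and 7.23 to 9.46 CPM. The leukocyte markers Cd68, Mrc1 and Csf1r were low but measured, at 1.79 to 3.15, 1.37 to 3.85 and 0.65 to 1.74 CPM. Adgre1, Lyz2 and Cd14 were at most 0.04, 0.95 and 0.39 CPM. Of the renal stroma markers Foxd1 was at most 0.25 CPM, but the collagen gene Col1a1 was at 284, 656 and 402 CPM in KO and 227 and 650 CPM in WT. In bulk RNA, fewer cells of a type and less RNA per cell cannot be told apart.

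Differences were tested with limma on log2(CPM + 1) over the 14884 genes that reached 0.5 CPM in at least 2 libraries. Fold changes are on that scale, which understates changes of low genes, and calls needed a Benjamini-Hochberg adjusted p under 0.05. No member of the FGF-ERK group was called, and 0.00672% of all genes were (1 gene). The targeted gene Dis3l2 was missed too, at -1.24 ± 0.21 on the log2 scale (SE; limma, unadjusted p = 0.000616, adjusted p = 0.954). For this gene the authors' deposited FDR is 0.00855. A gene without a call here may therefore still differ by genotype. At an unadjusted p under 0.05 stood 1 of the 10, Fgfr2, against 2.77% of all genes (1.5% higher and 1.27% lower in KO). All KO values exceeded both WT values for 1 of the 10, again Fgfr2, against 7.85% of all genes, and lay under both for 0 of the 10, against 6.98%. The median log2 fold change of the 10 was -0.07, beside 0.01 over all genes tested, and the median absolute value was 0.13 against 0.12. An exact permutation test of 3 against 2 libraries cannot give a two-sided p below 0.1. The plot of intervals shows the sizes of difference these libraries allow. For 9 of the 10 genes the 95% interval, not adjusted for the number of genes, lay within a 2-fold change in either direction. The same held for 90.4% of all genes tested.

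**Figure D1:**
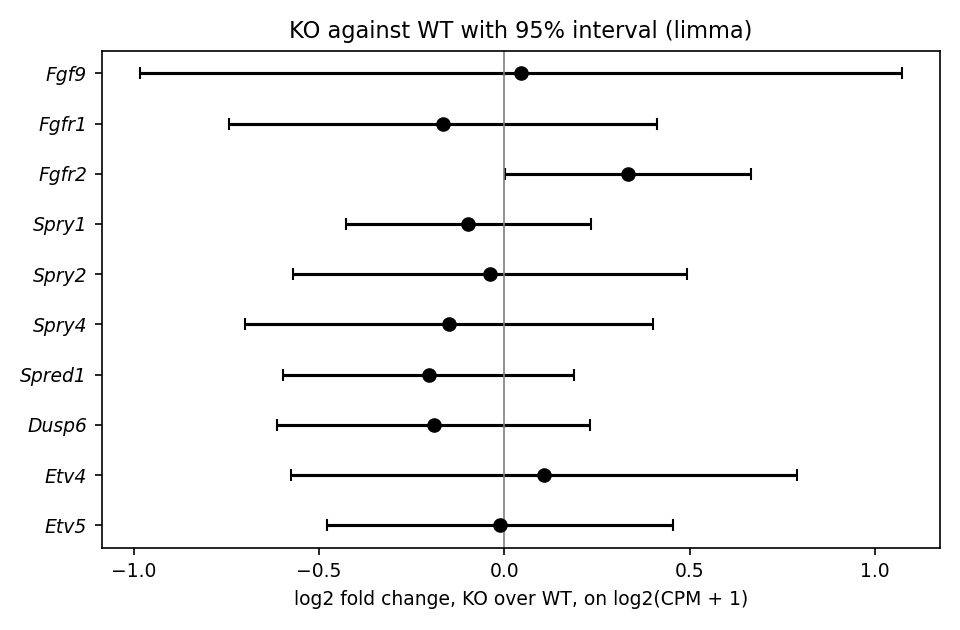
Log2 fold change of KO over WT for each gene (points) with its unadjusted 95% interval from limma (bars), on the log2(CPM + 1) scale. The interval of Fgf9 is the widest, from -0.98 to 1.07, and that of Fgfr2 lies just above 0.

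Fgf9 (ENSMUSG00000021974.15, chromosome 14, 58070547 to 58112720, plus strand, GRCm38), the ligand, was a low transcript. It was at 1.64, 0.34 and 0.38 CPM in KO and at 1.53 and 0.07 CPM in WT. These levels are 77, 11 and 8 reads in KO and 33 and 2 reads in WT, so the exact Poisson 95% interval, for counting error only, is 1.30 to 2.05 CPM in KO replicate 1 and 0.01 to 0.25 in WT replicate 2. One library of each genotype was high and the rest were low, and the genotypes overlapped over nearly the whole range. The log2 fold change was 0.04 ± 0.43 (SE; limma, adjusted p = 1.00). At this level the pseudocount sets the scale: with a pseudocount of 0.25 the log2 fold change was 0.24 ± 0.81 (SE), so the interval is no limit on the fold change of Fgf9.

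Of the 21 other FGF ligand genes, 4 passed the filter. Fgf1 was the most abundant of them in CPM, at 66.1, 50.3 and 55.5 in KO and 77.2 and 54.2 in WT. Fgf2 was at 5.37, 9.92 and 12.4 CPM in KO and 7.65 and 11.2 CPM in WT. Fgf7, a ligand best known from stroma, varied most of the 4, with 0.75, 3.06 and 4.37 CPM in KO and 1.39 and 8.46 CPM in WT, and Fgf11, an intracellular FGF homologue, lay between 0.88 and 1.34 CPM. None of the 4 passed, and among them only Fgf11 had every KO value above both WT values. Fgf20, the other progenitor-sustaining ligand, and Fgf8, which marks early nephrons, were listed at 0 in all 5 libraries, and a count of 0 allows up to 3 reads, or between 0.0639 CPM (KO replicate 1) and 0.141 CPM (KO replicate 3).

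Fgfr1 (ENSMUSG00000031565.18, chromosome 8, 25513654 to 25575718, plus strand) was the more abundant of the receptor genes. It was at 103, 65.6 and 58.3 CPM in KO and at 86.2 and 78.7 CPM in WT. KO replicate 1 lay above both WT libraries and the other KO libraries below them. The log2 fold change was -0.16 ± 0.24 (SE; limma, adjusted p = 1.00).

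Fgfr2 (ENSMUSG00000030849.18, chromosome 7, 130162451 to 133123350, minus strand) was at 18.4, 17.8 and 18.3 CPM in KO and at 13.6 and 14.8 CPM in WT. The KO libraries were close to each other and did not overlap the WT libraries. The means were 18.1 ± 0.33 CPM in KO and 14.2 ± 0.84 CPM in WT (SD, n = 3 and 2), a 1.26-fold difference on the log2(CPM + 1) scale with a 95% interval of 1.00 to 1.59. The log2 fold change of 0.33 ± 0.14 (SE) had a nominal p of 0.0493, or 0.0571 with a pseudocount of 5 and 0.0623 with median-of-ratios scaling, and did not pass over all genes (limma, adjusted p = 1.00). With each library left out in turn it ran from 0.28 to 0.39. In the authors' deposited table it was 0.35 with a p-value of 0.13 and an FDR of 1. The GENCODE M21 model of Fgfr2 spans 2.96 Mb, while the RefSeq model spans 0.1 Mb. Over its whole span, introns included, the GENCODE model runs across 69 other annotated genes, 23 of them at 1 CPM or more in some library. The deposited identifier, with its version, is that of the GENCODE M21 entry, but the sources used here do not name the annotation that was counted. Whether exons are shared with a neighbour such as Ate1 was not checked, so reads may have been gained or dropped. The part of this in the Fgfr2 values was not tested.

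Of the 16 other receptor and adaptor genes, 15 were tested, 9 with a positive and 6 with a negative log2 fold change, and none passed. Fgfr3 was at 9.50, 7.86 and 7.20 CPM in KO and at 8.07 and 8.04 CPM in WT. Fgfr4 was below 1 CPM in every library. The docking protein gene Frs2, which couples FGF receptors to RAS, was at 32.6, 30.3 and 35.3 CPM in KO and 32.4 and 32.9 CPM in WT, and Grb2, its adaptor, at 23.2, 23.2 and 23.3 CPM in KO and 20.2 and 23.2 CPM in WT. Plcg1, a phospholipase recruited by the receptors, had no KO value reaching a WT value, with means of 80.2 ± 4.12 CPM in KO and 92.7 ± 3.36 CPM in WT (SD, n = 3 and 2) and a log2 fold change of -0.21. The median of the 15 was 0.01, equal to that over all genes at 2 decimals, and the 15 values ran from -0.21 to 0.20.

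Spry1 (ENSMUSG00000037211.12, chromosome 3, 37639947 to 37644598, plus strand), a Sprouty gene known in the mouse for restraining ureteric bud outgrowth, was at 202, 241 and 214 CPM in KO and at 244 and 224 CPM in WT. It had the smallest spread of the 10 genes, with 1.21-fold between its lowest and highest library. The antisense gene Gm42922 overlaps it, and without the strand setting their reads cannot be told apart. The genotypes overlapped, and the log2 fold change was -0.10 with a 95% interval from -0.43 to 0.23. Spry2 (ENSMUSG00000022114.5, chromosome 14, 105891947 to 105896819, minus strand), another Sprouty gene, was at 104, 63.5 and 69.0 CPM in KO and at 83.9 and 74.7 CPM in WT. KO replicate 1 was the highest library and the other KO libraries the lowest, and the log2 fold change was -0.04 with a 95% interval from -0.57 to 0.49. Spry4 (ENSMUSG00000024427.6, chromosome 18, 38586247 to 38601415, minus strand) was at 101, 63.0 and 64.4 CPM in KO and at 90.9 and 75.1 CPM in WT. As with Spry2, KO replicate 1 was highest and KO replicates 2 and 3 were lowest, and the log2 fold change was -0.15 with a 95% interval from -0.70 to 0.40.

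Spred1 (ENSMUSG00000027351.14, chromosome 2, 117121374 to 117182279, plus strand), which brings the RAS inhibitor neurofibromin to the membrane, was at 159, 132 and 182 CPM in KO and at 177 and 184 CPM in WT. KO replicate 3 lay between the WT libraries and the other KO libraries below them. Its log2 fold change, -0.20 ± 0.17 (SE), was the most negative of the 10 (limma, adjusted p = 1.00). Dusp6 (ENSMUSG00000019960.8, chromosome 10, 99263231 to 99267489, plus strand), the phosphatase that dephosphorylates ERK, was at 203, 175 and 161 CPM in KO and at 237 and 176 CPM in WT. WT replicate 1 was the highest library, and WT replicate 2 stood close to KO replicate 2. The log2 fold change was -0.19 with a 95% interval from -0.61 to 0.23.

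Etv4 (ENSMUSG00000017724.14, chromosome 11, 101769742 to 101785371, minus strand), an ETS factor of the PEA3 subfamily, was at 61.1, 38.6 and 35.0 CPM in KO and at 50.8 and 32.1 CPM in WT. The lowest library was a WT one and the highest a KO one, and the log2 fold change was 0.11 with a 95% interval from -0.58 to 0.79. Etv5 (ENSMUSG00000013089.15, chromosome 16, 22381309 to 22439719, minus strand), the related factor, was at 69.8, 49.9 and 45.7 CPM in KO and at 56.8 and 52.6 CPM in WT. Its means were 55.1 ± 12.8 CPM in KO and 54.7 ± 2.98 CPM in WT (SD, n = 3 and 2), and the log2 fold change was -0.01 with a 95% interval from -0.48 to 0.46. In the authors' deposited table all 10 genes had an FDR of 1, with log2 fold changes from -0.20 (Dusp6) to 0.35 (Fgfr2).

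**Figure D2:**
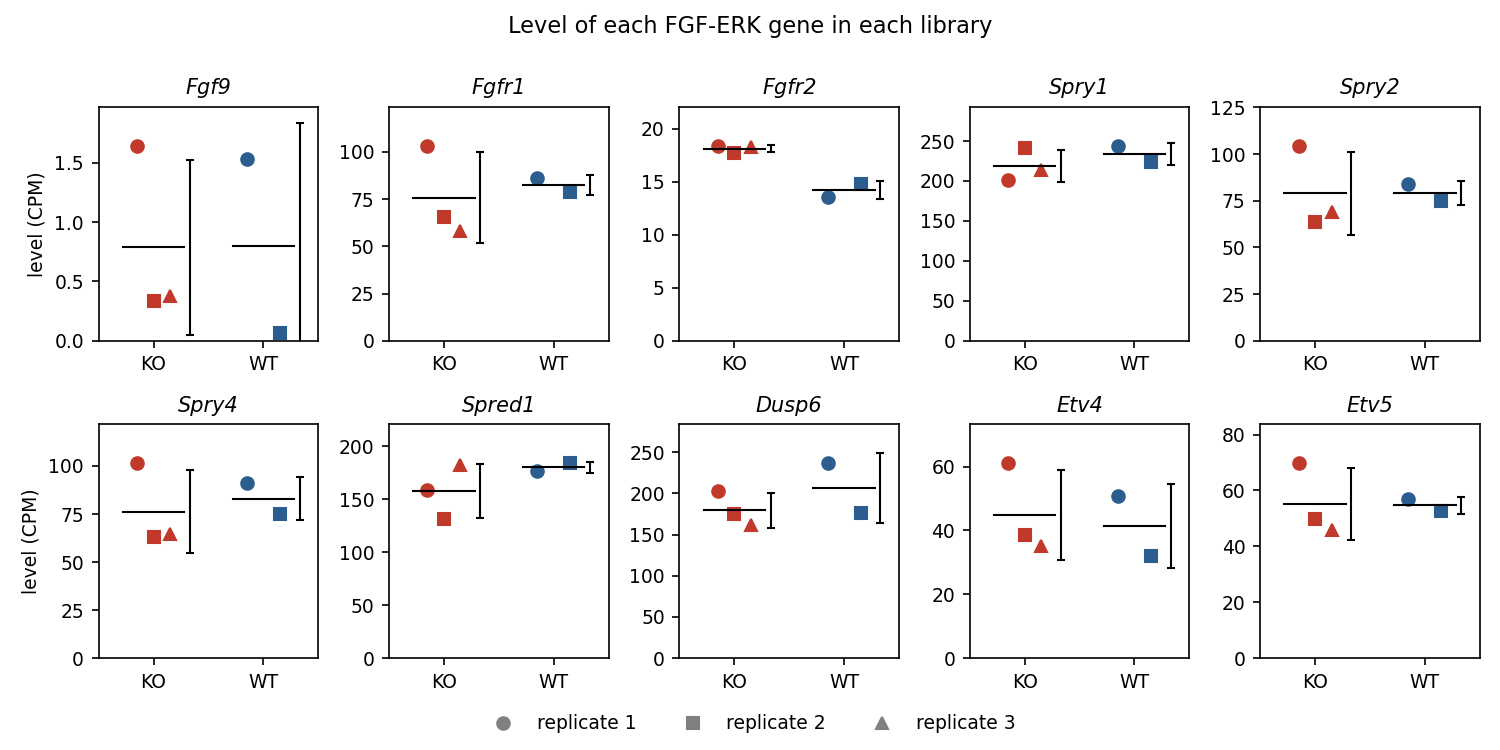
Level in CPM of each gene in each library, KO at the left and WT at the right of each panel. Symbols give the replicate number, horizontal lines the mean and bars 1 SD (n = 3 and 2), the WT bar of Fgf9 being cut off at 0. Only in the Fgfr2 panel do the genotypes not overlap.

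Per kb of annotated exon, Spry1 and Dusp6 gave the highest levels, with means of 75.4 and 57.4 CPM per kb in KO and 80.5 and 65.9 CPM per kb in WT. Spry2 followed with 37.8 in KO and 38.0 in WT, then Spred1 with 23.2 in KO and 26.6 in WT. Spry4, Etv4 and Etv5 came next, at 16.0, 14.5 and 13.4 CPM per kb in KO and 17.5, 13.3 and 13.3 in WT. Fgfr1 had 7.66 in KO and 8.35 in WT, Fgfr2 1.75 in KO and 1.37 in WT, and Fgf9 0.169 in KO and 0.172 in WT. Over the 5 libraries the ranges of Spry1 and Dusp6 overlapped, as did those of Spred1 and Spry4, of Spry4, Etv4 and Etv5, and of Etv4 and Fgfr1. Dusp6 and Spry2, Spry2 and Spred1, Fgfr1 and Fgfr2, and Fgfr2 and Fgf9 did not overlap. The lengths are merged GENCODE M21 exons, so the value of Fgfr2 depends on its long model.

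The plot of centred levels shows how the members varied between libraries of 1 genotype. KO replicate 1 and WT replicate 1 were the highest libraries for Fgf9, Fgfr1, Spry2, Spry4, Dusp6, Etv4 and Etv5, an order that 16.8% of all genes tested also had and that was noticed after the values were seen. The mean centred log2 level of the 7 feedback and target members was 0.22, -0.17 and -0.16 in KO and 0.17 and -0.07 in WT. Spry1 and Spred1 did not share this order, and Fgfr2 had its lowest level in WT replicate 1. The labels do not say what libraries with the same number share.

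**Figure D3:**
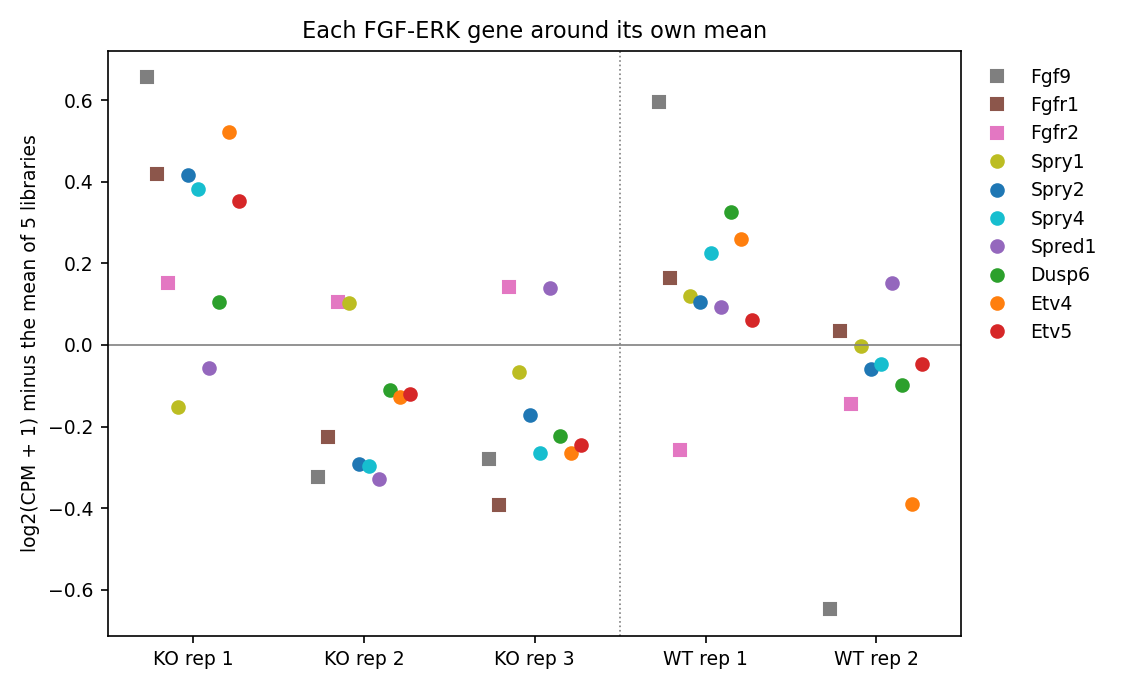
Log2(CPM + 1) of each gene minus its mean over the 5 libraries, in the 3 KO and the 2 WT libraries, with circles for feedback and target genes and squares for the ligand and receptors. Etv4 stands at 0.52 in KO replicate 1 and 0.26 in WT replicate 1 and below 0 in the other libraries, while Fgfr2 is above 0 in every KO library and below 0 in both WT libraries.

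Several cell type markers moved with this order, and those named here were picked after their values were seen. The progenitor markers Cited1 (17.1, 4.74 and 2.73 CPM in KO, 15.2 and 1.40 in WT) and Gdnf (22.6, 5.15 and 5.83 in KO, 12.0 and 2.42 in WT), the ligand that draws out the ureteric bud, were highest in the same libraries. Eya1, Sall1, Wt1 and Crym had this order too, but the progenitor markers Six2, Osr1, Pax2, Meox1, Itga8 and Hoxd11 did not. The summed level of all 12 progenitor markers was 1035, 849 and 957 CPM in KO and 1054 and 828 CPM in WT. The 10 renal stroma markers summed to 877, 1430 and 1115 CPM in KO and 872 and 1659 CPM in WT, lowest in the same libraries. The 8 early nephron markers summed to 367, 222 and 227 CPM in KO and 204 and 207 CPM in WT. Not all stroma markers went with their sum, which the collagen genes Col1a1 and Col3a1 carried: Meis1 (86.8, 39.7 and 38.6 CPM in KO, 51.1 and 35.8 in WT), Meis2 and Dcn were highest in the replicate 1 libraries. The 7 podocyte markers also summed highest there, to 29.8, 22.6 and 15.4 CPM in KO and 27.5 and 25.7 CPM in WT, as did the endothelial marker Kdr. The sums of ureteric bud markers (at most 23.6 CPM), endothelial markers (at most 73.5) and leukocyte markers (at most 8.55) did not have that order. The part of cell makeup in the feedback gene levels was not tested. Xist (872, 765 and 0.52 CPM in KO, 0.93 and 951 in WT) and Ddx3y (0.09, 0.19 and 128 CPM in KO, 104 and 0.07 in WT) did not follow that order, and neither did depth, which was highest in KO replicate 1 and second lowest in WT replicate 1.

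KO replicate 1 decided the overlap of several members with WT. Without it, Fgfr1, Spry2, Spry4, Dusp6 and Etv5 lay below both WT libraries in both remaining KO libraries, against 14.3% of all genes, and Fgfr2 above both, against 16.4%. The genes that lay below are among those highest in both replicate 1 libraries, and WT replicate 1 stayed in this comparison. Dusp6 was at 175 CPM in KO replicate 2 and at 176 CPM in WT replicate 2. The median log2 fold change of the 9 genes still tested (Fgf9 missed the filter) was then -0.22, beside 0.01 over all genes. No member passed with limma in that comparison, where the smallest adjusted p of a member was 0.821. Without WT replicate 2 the median was -0.20, and without WT replicate 1, when Fgf9 also missed the filter, it was 0.02, so its sign depended on the library left out.

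The genes whose pattern over the 5 libraries lay nearest to the mean centred profile of the 7 feedback and target members, among 9855 other genes with a mean of at least 5 CPM, were Snord83b, Lsm14b, Sdad1, Tbc1d4 and Abr. Their Euclidean distances on the log2(CPM + 1) scale were 0.04 to 0.06. The members' own distances ran from 0.20 (Etv5) through 0.22 (Dusp6) and 0.24 (Spry2 and Spry4) to 0.46 (Etv4), 0.48 (Spry1) and 0.50 (Spred1). Of the 9855 other genes, 385 lay at least as near as Etv5, 504 as Dusp6, 728 as Spry2 and 729 as Spry4. For Etv4, Spry1 and Spred1 these numbers were 4191, 4589 and 4913, although each member is itself part of the mean profile.

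Around these 10 genes the remaining pathway was described from lists of its parts. Over all genes tested, 7869 had a positive and 7015 a negative log2 fold change, beside which the counts of each list stand. Of 14 other feedback inhibitors of ERK signalling, all tested, 8 had a positive and 6 a negative log2 fold change, with a median of 0.06 beside 0.01 over all genes, and none passed. Dusp9, a further ERK phosphatase gene, was at 9.40, 5.49 and 5.27 CPM in KO and at 4.45 and 3.69 CPM in WT, and its KO values all exceeded its WT values (log2 fold change 0.57, standard error 0.26). Errfi1, which restrains the EGF receptor, was at 30.3, 71.1 and 70.5 CPM in KO and at 25.8 and 42.2 CPM in WT, with its low values in the libraries where Spry2 and Etv4 were high. Il17rd, a membrane inhibitor of FGF signalling also called Sef, was at 309, 231 and 238 CPM in KO and 245 and 218 CPM in WT, and was named for its role after its values were seen.

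Of 21 other ERK-responsive transcripts, 19 were tested, 11 with a positive and 8 with a negative log2 fold change, with a median of 0.11, and none passed. Plaur, which encodes the urokinase receptor, was at 2.05, 2.78 and 1.79 CPM in KO and at 0.84 and 1.12 CPM in WT, a log2 fold change of 0.69 ± 0.19 (SE) and a nominal p of 0.00936 (limma, adjusted p = 1.00). Ets1, an ETS factor gene, was at 79.1, 106 and 133 CPM in KO and at 142 and 154 CPM in WT, no KO value reaching a WT value (log2 fold change -0.51, standard error 0.22). The immediate-early genes Ier3 and Jun had log2 fold changes of 0.41 and 0.37, in each case with no KO value under a WT value. Every KO value lay above both WT values for 3 of the 19 and under both for 1, against 7.85% and 6.98% of all genes. With 11 positive and 8 negative log2 fold changes, the ERK-responsive transcripts pointed both ways.

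Of 16 genes of the RAS-ERK core, all tested, 6 had a positive and 10 a negative log2 fold change, the median was -0.04, and none passed. Mapk3, which encodes ERK1, was at 14.8, 13.8 and 14.1 CPM in KO, against 10.7 and 13.7 CPM in WT. Map2k2, which encodes MEK2, was at 40.9, 42.9 and 19.3 CPM in KO and 23.6 and 20.5 CPM in WT, so its difference came from KO replicates 1 and 2.

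All 20 heparan sulfate and proteoglycan genes, whose products present FGFs to their receptors, were tested. Of these 15 had a positive and 5 a negative log2 fold change, 5 had every KO library above both WT libraries and 0 below, against 7.85% and 6.98% of all genes, and none passed. The median was 0.20 beside 0.01 over all genes, and 0.08 without KO replicate 2. Gpc3, a glypican gene whose loss in people causes an overgrowth syndrome, was at 329, 384 and 353 CPM in KO and at 296 and 252 CPM in WT (log2 fold change 0.37, standard error 0.15, unadjusted p = 0.0399, limma, adjusted p = 1.00). The glypican gene Gpc4 had a log2 fold change of 0.31, the syndecan gene Sdc3 0.42, and Ext1, a heparan sulfate polymerase gene, 0.24, in each case with no KO value under a WT value.

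Of 14 other receptor tyrosine kinase genes, 12 were tested, 8 with a positive and 4 with a negative log2 fold change, with a median of 0.22, and none passed. Kit, the stem cell factor receptor gene, was at 33.5, 36.8 and 32.8 CPM in KO and at 24.0 and 17.1 CPM in WT, a log2 fold change of 0.73 ± 0.18 (SE) and a nominal p of 0.0044 (limma, adjusted p = 1.00). Pdgfra, a stromal receptor gene, was at 2.15, 3.34 and 3.53 CPM in KO and at 4.27 and 6.28 CPM in WT, no KO value reaching a WT value. Egfr and Met had log2 fold changes of 0.57 and 0.52, with KO and WT libraries that overlapped.

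**Figure D4:**
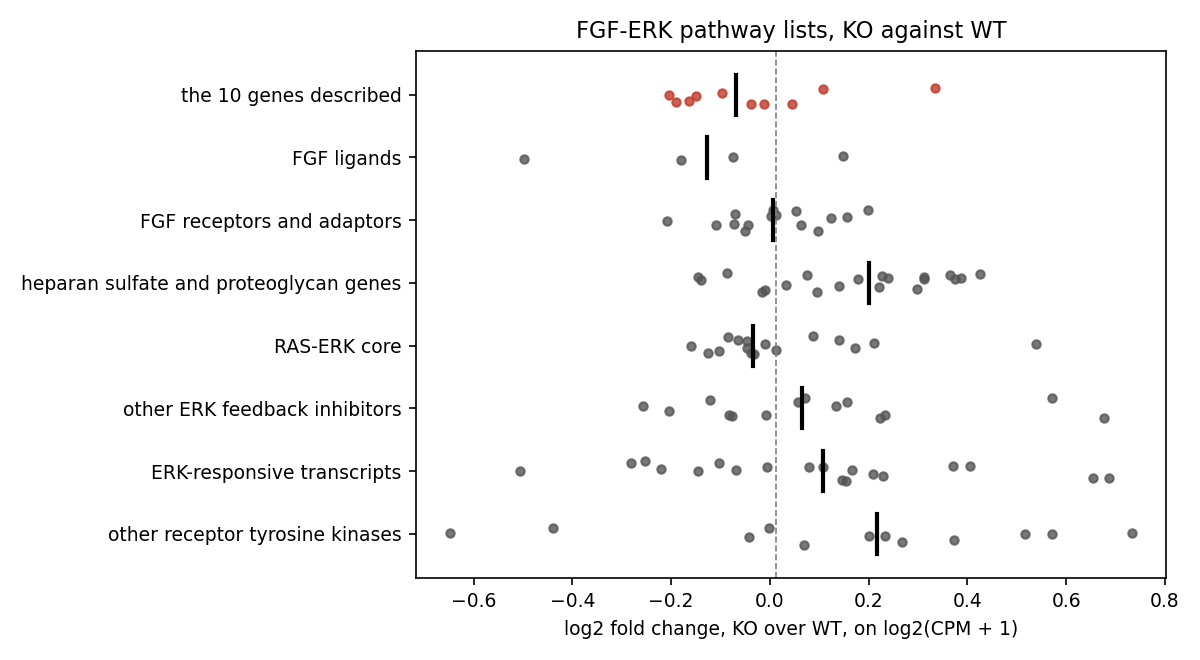
Log2 fold change of KO over WT on the log2(CPM + 1) scale for the 10 genes described and for each list of the pathway (1 point a tested gene, vertical bars the list medians, dashed line the median of all genes tested at 0.01). The 10 genes lie between -0.20 and 0.33, and the medians of the lists lie between -0.13 for FGF ligands and 0.22 for other receptor tyrosine kinases.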

How the data were processed

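Total RNA was made into stranded libraries and read from a single end, per the labels' protocols. Alignment with HISAT2 2.1.0 to mm10, counting with featureCounts and the use of edgeR 3.20.1 are listed in the submitters' processing notes. Annotation, strand setting and handling of multiply matching reads: not given in the sources used here. The authors deposited, for each library, a signal with 2 decimals in CPM, scaled to the effective size of the library. The authors' table also gives a log2 fold change, a likelihood ratio score, and a p-value and FDR. Low values lie on steps of 1 read, which gave the depths and read numbers. Rounding moves a value by up to 0.235 reads. No count model was fitted here. limma 3.58.1 in R 4.3.3, with its trend option, was fitted to log2(CPM + 1) with genotype as the term, over all 5 libraries and all genes kept by the filter, and was tested on simulated data. Intervals and limits on read numbers cover counting error only.

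The members and lists were chosen with earlier results of these data known. Named genes were the 10 members, Dis3l2, up to 4 genes of each list with the smallest p, and the 5 nearest patterns. Other genes (Fgfr3, Frs2, Il17rd, Fgf8, Fgf20, Ate1 and cell type markers) were named outside that rule, for their roles. Alternatives changed the pseudocount, filter, scaling, trend and block, and left out each library. Gene positions and exon lengths are from GENCODE M21 and upstream sequences from RefSeq, both on GRCm38. One gene of the RAS-ERK core is not reported here.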

Additional observations from a re-analysis of the deposited data

How the results depend on the processing

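No FGF-ERK member was called by limma under any of the 11 alternatives. Of 108 refits of single members, 96 kept their direction, and 5 of the 10 members kept it throughout: Fgfr1, Fgfr2, Spry1, Spry4 and Spred1. The refits without the trend option or without the filter leave a log2 fold change unchanged, so they kept the direction by construction. With a replicate block, in which same-numbered KO and WT libraries are paired, Spry2 turned to 0.039 and Etv5 to 0.11. KO replicate 3 has no WT partner there, so the block estimates repeat those obtained without KO replicate 3. The other turns came from leaving out a library, where log2 fold changes ran from -0.26 to 0.10 (Spry2), -0.19 to 0.11 (Etv5), -0.40 to 0.022 (Dusp6), -0.22 to 0.43 (Etv4) and -0.58 to 0.21 (Fgf9), and the cause was not tested. The members' median ran from -0.22 to 0.022, within the spread between libraries. With a library left out, list medians ran from -0.23 to 0.19 (FGF ligands), 0.0040 to 0.056 (receptors and adaptors, -0.015 with median-of-ratios scaling), -0.085 to 0.049 (RAS-ERK core), -0.032 to 0.15 (other feedback inhibitors), -0.0090 to 0.28 (ERK-responsive transcripts), 0.084 to 0.21 (heparan sulfate) and 0.16 to 0.28 (other receptor kinases). A nominal limma p under 0.05 was reached by Fgfr2 alone of the members, against 2.77% of all genes. None of them reached it with a pseudocount of 5 or median-of-ratios scaling. Without KO replicate 1 it was reached by 2 of the 9 members tested, Fgfr1 and Spry4, against 5.22% of all genes. Without KO replicate 2 or 3 it was reached by 0 members, against 1.56% and 10.4% of all genes. With the replicate block 3 members reached it, against 21.1% of all genes. The log2 fold change of Fgf9 was 0.24 with a pseudocount of 0.25 and 0.00068 with a pseudocount of 5. The number of genes called was 1, and 0 with a pseudocount of 5, no filter, median-of-ratios scaling or no trend. It was 390 with the replicate block, a fit with 1 residual degree of freedom, and 0 to 8 with a KO library left out. Members whose genotypes did not overlap numbered 2 to 6 with a library left out, where 20.6% to 41.7% of all genes did not overlap, and 30.7% in the comparison with 6.

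Whether the replicate numbers pair the libraries is not stated. Deviations from the genotype means correlated at 0.414 across genes for the replicate 1 libraries and at 0.537 for the replicate 2 libraries. The deviations of 2 WT libraries mirror each other, so crossed numbers give -0.414 and -0.537 by construction, and these values are not separate evidence of pairing. Depth limits Fgf9, which had 2 to 77 reads a library, and 2 against 3 libraries limit every interval here.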

Other observations

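Some other genes also set the replicate 1 libraries apart, and were picked after their values were seen. The cyclin D1 gene Ccnd1, a G1 cell cycle gene, was at 4.39, 22.4 and 17.8 CPM in KO and at 5.43 and 26.9 CPM in WT, lowest in the libraries where the Sprouty gene Spry4 was highest. The collagen receptor gene Ddr2 was at 8.65, 20.1 and 26.2 CPM in KO and at 9.09 and 30.2 CPM in WT, again with the replicate 1 libraries lowest. The ERK phosphatase gene Dusp5 was highest in those libraries, at 12.3, 4.62 and 4.42 CPM in KO and at 10.7 and 5.69 CPM in WT. The heparan sulfate 6-O-endosulfatase gene Sulf1, whose product trims sites that FGFs use, was at 23.4, 109 and 114 CPM in KO and at 45.7 and 56.3 CPM in WT, so KO libraries lay on both sides of the WT range. None of these 4 genes passed with limma, and what separates the libraries was not tested.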
